A study of Mus musculus with 8 samples.

Results

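Immediate early genes are transcribed within minutes of a stimulus, without new protein synthesis. The set described here was fixed by name as Egr1, Fos, Fosb, Jun, Junb, Jund, Ier2, Dusp1, Zfp36 and Nr4a1, and all 10 were found among the 43430 genes of the count table and passed the filter on low counts among 12689 genes in all. They were followed in CD31-positive endothelial cells sorted from the lungs of C57BL/6 mice at postnatal day 15, with 4 knockout (KO) and 4 wild-type (WT) libraries. The KO mice had lost QPC in endothelial cells, a protein of complex III of the mitochondrial respiratory chain whose gene is taken here as Uqcrq, and tamoxifen was given on postnatal days 0 to 4. The treatment text of the labels is the same for KO and WT samples. Which Cre driver and floxed allele were used and whether each library came from a separate animal is not stated in the sources used here, and p-values therefore measure only how far these samples spread, which can be technical.

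In many cell types signals through the MAP kinases, serum response factor and CREB switch most of these genes on, and the induced RNAs are lost again within the hour. The Fos and Jun proteins pair to form the transcription factor AP-1, EGR1 and NR4A1 act as transcription factors on their own, and DUSP1 and ZFP36 end the response by removing phosphates from MAP kinases and by destroying short-lived RNAs. Enzymatic digestion of a tissue and cell sorting can induce many of these genes, so the level of each library is given for every gene. The labels give no digestion or sorting time per library, and the part of these steps in any difference below was not tested.

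Most of the 10 genes are compact. By GENCODE the median genomic span of the 10 was 3852.5 bases against 17363 bases over 21864 protein-coding genes. Dusp1 (56539 bases) and Nr4a1 (20527 bases) have longer spans than the protein-coding median. Jun, Junb, Jund and Ier2 have 1 exon in their longest protein-coding transcript. Genes of this kind are 40% of the set and 6.77% of protein-coding genes. The promoter table of RefSeq (GRCm38.p6) held 8 of the genes, and Egr1 and Ier2 were not among them. The 4 promoters printed here, each the 250 bases before the RefSeq start, written 5′ to 3′ on the strand of the gene, are that of Jun, which was lower in KO, that of Fos, which varied 1.99-fold within KO and 2.07-fold within WT, and those of Dusp1 and Zfp36, the genes that end the response. Capitals mark matches, on either strand, to the CArG box bound by serum response factor, a CRE-type element (TGACNTCA), an AP-1 element (TGANTCA), an EGR element (GCGNGGGCG) or a TATA box (TATAAA). The Jun window lies at chr4:95052223-95052472 (minus strand), the Fos window at chr12:85473640-85473889 (plus strand), the Dusp1 window at chr17:26508473-26508722 (minus strand) and the Zfp36 window at chr7:28379229-28379478 (minus strand). For Dusp1 and Zfp36 the RefSeq start lies inside the longer GENCODE span given below.
Jun: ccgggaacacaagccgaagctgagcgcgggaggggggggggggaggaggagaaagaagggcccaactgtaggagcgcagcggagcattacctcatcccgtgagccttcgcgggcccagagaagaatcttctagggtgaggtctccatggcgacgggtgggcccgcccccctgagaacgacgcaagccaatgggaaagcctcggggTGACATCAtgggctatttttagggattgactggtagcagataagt
Fos: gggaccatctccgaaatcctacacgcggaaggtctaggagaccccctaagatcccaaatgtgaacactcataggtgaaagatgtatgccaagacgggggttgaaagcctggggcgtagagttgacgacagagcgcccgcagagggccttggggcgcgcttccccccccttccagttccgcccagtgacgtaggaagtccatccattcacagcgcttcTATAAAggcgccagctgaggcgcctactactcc
Dusp1: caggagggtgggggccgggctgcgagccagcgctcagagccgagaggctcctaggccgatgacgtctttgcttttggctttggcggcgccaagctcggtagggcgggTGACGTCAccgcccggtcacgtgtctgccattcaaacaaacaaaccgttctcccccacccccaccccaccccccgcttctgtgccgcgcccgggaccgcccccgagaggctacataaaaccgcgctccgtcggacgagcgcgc
Zfp36: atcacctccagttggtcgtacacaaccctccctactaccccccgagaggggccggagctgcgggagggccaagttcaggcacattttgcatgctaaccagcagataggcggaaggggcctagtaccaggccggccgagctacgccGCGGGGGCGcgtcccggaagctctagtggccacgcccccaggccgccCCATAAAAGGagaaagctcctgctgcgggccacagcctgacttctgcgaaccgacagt
Jun held the CRE-type match TGACATCA, whose first base lies 45 bases before the start, and Dusp1 held TGACGTCA at 143 bases before the start. Such a match was found in 7.49% of the 32851 promoter windows searched. Fos held a TATA box 33 bases before the start, as did 12.4% of all windows in some position. Zfp36 held the CArG match at 58 bases and an EGR match at 105 bases before the start. CArG boxes were found in 1.47% and EGR matches in 4.7% of all windows, and EGR matches also in the windows of Fosb and Nr4a1. The AP-1 letters, found in 6.75% of windows, were in 0 of the 8. Among the windows not printed, that of Jund ends at chr8:70697738, upstream of the GENCODE start at 70698949. The Nr4a1 window ends at chr15:101266845, inside the GENCODE span given below. All windows end close to the RefSeq start, and nothing is drawn from letters that are not in them.

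Total counts ran from 11209714 to 13981329 in KO libraries and from 6407924 in WT replicate 3 to 11951816 in WT libraries. Levels are given as CPM, counts scaled to library size with TMM normalisation. Uqcrq, the check of the deletion, lay between 1.59 and 15.6 CPM in KO and between 24.5 and 31.5 CPM in WT, with all KO libraries below all WT libraries (log2 fold change -1.42, SE 0.53, edgeR adjusted p = 0.179). The 8 endothelial markers (Pecam1, Cdh5, Kdr, Tek, Tie1, Erg, Emcn and Cldn5) had sums between 11387 and 14801 CPM in KO and between 13183 and 15470 CPM in WT. Of them, Tek and Erg were called lower in KO. Markers of alveolar type 2 epithelium were present in every library, with sums between 3861 and 17164 CPM in KO and between 4057 and 23588 CPM in WT, and 0 of 8 were called by edgeR (0 at an unadjusted p under 0.05). The pan-leukocyte gene Ptprc reached at most 9.37 CPM in KO and at most 6.13 CPM in WT, and Cx3cr1 was at 0 in every library. Mrc1, of the same leukocyte list, had 12.6 to 28.7 CPM in KO and 22.1 to 43.5 CPM in WT. Lyz2 is in both the leukocyte and the type 2 list. Markers of mural cells with fibroblasts summed to 240 to 895 CPM in KO and 153 to 978 CPM in WT. Those of type 1 and airway epithelium summed to 313 to 1153 CPM in KO and 261 to 855 CPM in WT. Of the tested markers of type 1 and airway epithelium, leukocytes, mural cells with fibroblasts, and blood, 0 were called by edgeR, and at an unadjusted p under 0.05 there were 1, 1, 0 and 0. In bulk RNA, fewer cells of a type and less RNA per cell cannot be told apart. Over all genes, 461 of 12689 were called (3.63%), 285 higher (2.25%) and 176 lower in KO (1.39%). A correction that removed from every library the dependence of its counts on the length and GC content of transcripts, below the length-GC correction, left 57 genes called higher and 93 lower, around a median log2 fold change over all genes of -0.10 in place of 0.01.

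Of the 10 immediate early genes 2 were lower in KO endothelial cells, Egr1 and Jun, and 0 were higher, set against the 1.39% of all genes called lower (quasi-likelihood F test in edgeR, adjusted by Benjamini-Hochberg, threshold 0.05). Egr1 was at 44.6% of its WT level and Jun at 70.6%. The other 8 genes did not pass, with 6 estimates below 0 and those of Jund and Nr4a1 above 0. The median log2 fold change of the 10 genes was -0.33, against 0.01 over all genes tested. Under the length-GC correction all 10 estimates were below 0, from -1.23 for Egr1 to -0.0046 for Nr4a1, with a median of -0.55 against -0.10 over all genes. Without WT replicate 1 the median of the 10 was -0.21. The CPM ranges of KO and WT did not overlap for Egr1 and Jun, with KO lower. Over all genes tested, 4.67% were separated in that direction and 6.94% in the other.

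**Figure D1:**
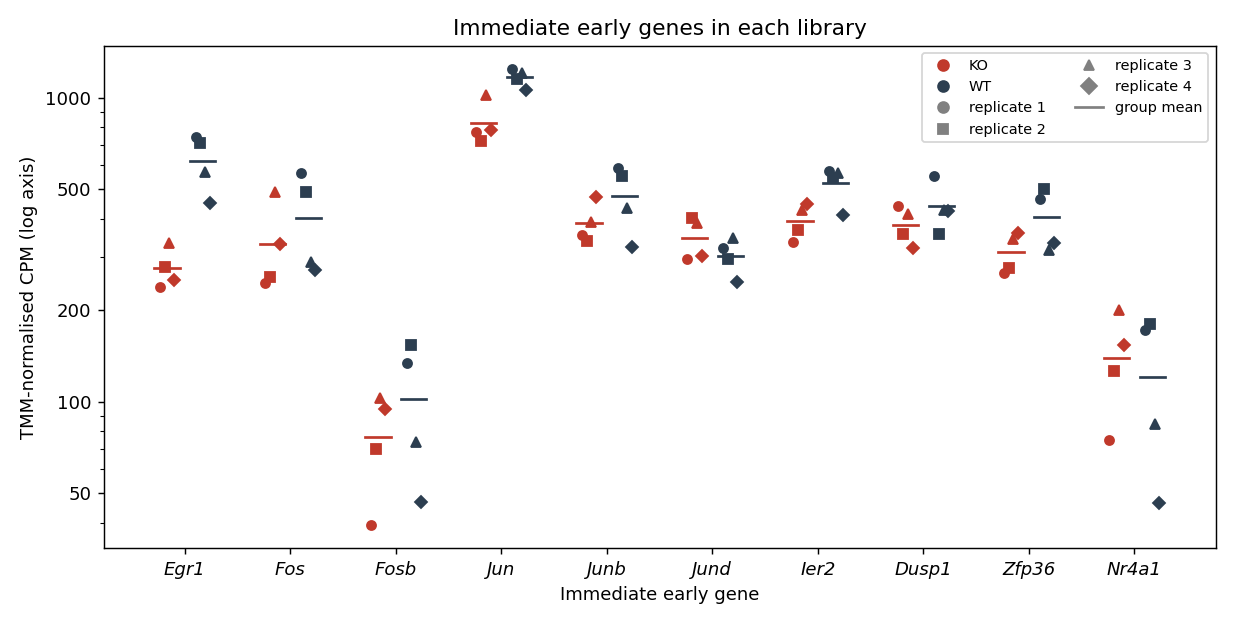
Normalised expression of the 10 immediate early genes in each library (CPM on a log axis, KO left of WT for each gene, one marker shape per replicate number, horizontal lines for group means). Egr1 and Jun are the genes whose KO points all lie below the WT points, while Fosb and Nr4a1 spread most within each group.

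Egr1 (ENSMUSG00000038418) encodes a zinc finger transcription factor that in endothelium responds to shear stress, growth factors and injury. Its level was 238, 278, 334 and 252 CPM in KO replicates 1 to 4 and 741, 708, 570 and 450 CPM in WT replicates 1 to 4. All 4 KO libraries lay below the lowest WT library, WT replicate 4. The means were 275 ± 42.3 CPM in KO and 617 ± 134 CPM in WT (SD, n = 4 each), from raw counts of 2545 to 4220 per KO library and 3813 to 8861 per WT library. The log2 fold change was -1.16 (SE 0.17, 95% interval -1.52 to -0.81, edgeR adjusted p = 0.00101). Egr1 was called lower in 23 of 23 alternative analyses, with log2 fold changes from -1.29 to -1.06. With the summed type 2 markers as a covariate, an alternative chosen after seeing the data, the fold change was -1.15 (edgeR adjusted p = 0.00119).

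Egr1 was also lower relative to the other immediate early genes of the same library. It made up 7.79%, 8.71%, 8.12% and 7.16% of the summed CPM of the 10 genes in KO replicates 1 to 4. In WT replicates 1 to 4 it made up 13.8%, 14.3%, 13.2% and 12.4%. Within each group the share thus varied little, although the Egr1 level itself differed 1.40-fold between KO libraries and 1.65-fold between WT libraries. Shares sum to 100%, so a lower share of Egr1 raises those of the others. Jund, at 10.1 ± 1.74% in KO and 6.71 ± 0.951% in WT (SD, n = 4 each), had the only other share whose group ranges did not overlap. These shares are a description, chosen after the values were seen, and were not tested.

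**Figure D2:**
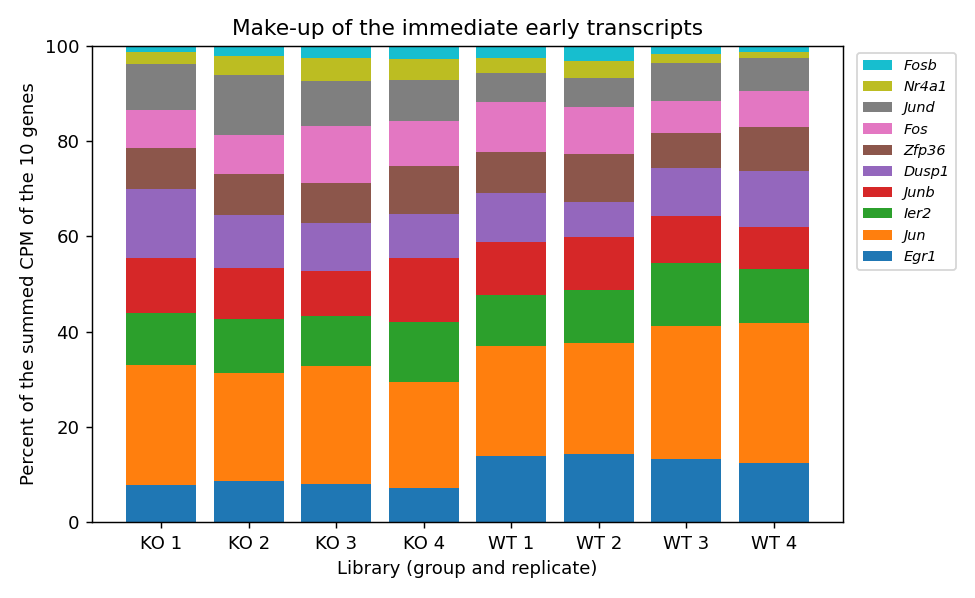
Share of each gene in the summed CPM of the 10 immediate early genes, in percent, one stacked bar per library with KO left of WT. The lowest segment is Egr1, between 7.16% and 8.71% in KO and between 12.4% and 14.3% in WT.

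Jun (ENSMUSG00000052684, chr4:95049034-95052222 in GRCm38, minus strand, a single exon) encodes the main Jun partner of AP-1. It had 774, 720, 1018 and 782 CPM in KO replicates 1 to 4 and 1245, 1156, 1207 and 1058 CPM in WT replicates 1 to 4. Each KO library was below the lowest WT library, replicate 4, with KO replicate 3 close to it and the other 3 well below. Jun averaged 824 ± 133 CPM in KO and 1167 ± 81.1 CPM in WT (SD, n = 4 each), a log2 fold change of -0.50 (SE 0.13, edgeR adjusted p = 0.0407). The call was close to the threshold and was held in 12 of 23 alternatives. It ended without any 1 library other than KO replicate 3: the edgeR adjusted p was 0.079, 0.137 and 0.0934 without KO replicates 1, 2 and 4, and 0.101, 0.0819, 0.108 and 0.0635 without WT replicates 1 to 4. It also ended under the length-GC correction (log2 fold change -0.64, edgeR adjusted p = 0.127). The antisense gene Junos overlaps Jun and had at most 60 counts in any library. Whether the counting used strand is not stated, so reads of overlapping genes on opposite strands cannot be told apart.

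Junb (ENSMUSG00000052837, chr8:84974484-84978718, minus strand) encodes a Jun protein that often opposes JUN in growth control. It had 353, 339, 390 and 473 CPM in KO replicates 1 to 4 and 590, 553, 433 and 324 CPM in WT replicates 1 to 4. WT replicate 4 was below every KO library and WT replicates 1 and 2 were above every KO library. The log2 fold change was -0.29 (95% interval -0.67 to 0.09, edgeR adjusted p = 0.52). Its gene model overlaps that of Prdx2 on the other strand. Prdx2 had 2276 to 3857 counts in KO libraries and 977 to 3271 in WT libraries. Junb itself had 3764 to 6530 counts in KO libraries and 2895 to 7048 in WT libraries.

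Jund (ENSMUSG00000071076, chr8:70698949-70700616, plus strand) is the Jun gene that is transcribed steadily in most resting cells. It had 295, 402, 387 and 303 CPM in KO replicates 1 to 4 and 321, 296, 345 and 248 CPM in WT replicates 1 to 4. The groups overlapped, with KO replicates 2 and 3 above all WT libraries. The estimate was 0.20 (95% interval -0.12 to 0.52, edgeR adjusted p = 0.649), and -0.23 under the length-GC correction. At 67.1% GC the Jund transcript is the richest in GC of the 10.

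Fos (ENSMUSG00000021250, chr12:85473890-85477273, plus strand) encodes the partner of Jun proteins that most stimuli induce first. It had 246, 258, 491 and 331 CPM in KO replicates 1 to 4 and 564, 489, 289 and 272 CPM in WT replicates 1 to 4. The values interleaved: KO replicate 3 was as high as WT replicate 2, and WT replicates 3 and 4 were below KO replicate 4. Fos averaged 331 ± 113 CPM in KO and 404 ± 146 CPM in WT (SD, n = 4 each). The log2 fold change of -0.28 had a 95% interval from -0.92 to 0.35 (edgeR adjusted p = 0.785), an interval that runs from 0.528-fold to 1.28-fold.

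Fosb (ENSMUSG00000003545, chr7:19302696-19310051, minus strand), a close relative of Fos, had 39.2, 70.1, 103 and 94.6 CPM in KO replicates 1 to 4 and 134, 154, 73.6 and 46.8 CPM in WT replicates 1 to 4. WT replicate 4 was below all KO libraries but replicate 1. Its log2 fold change was -0.41 (95% interval -1.26 to 0.45, edgeR adjusted p = 0.763).

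Nr4a1 (ENSMUSG00000023034, chr15:101254269-101274795, plus strand) encodes an orphan nuclear receptor that growth factors induce in endothelial cells. It had 74.9, 126, 201 and 154 CPM in KO replicates 1 to 4 and 172, 181, 84.3 and 46.3 CPM in WT replicates 1 to 4, a 3.90-fold range within WT. The highest value was that of KO replicate 3 and the lowest that of WT replicate 4. Nr4a1 had a log2 fold change of 0.20 (95% interval -0.82 to 1.23, edgeR adjusted p = 0.927). The sign turned without KO replicate 3 (-0.029), without WT replicate 4 (-0.066) and under the length-GC correction (-0.0046).

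Ier2 (ENSMUSG00000053560, chr8:84661331-84662852, minus strand), which encodes a small nuclear protein of the early response, had 335, 366, 428 and 446 CPM in KO replicates 1 to 4 and 576, 544, 567 and 410 CPM in WT replicates 1 to 4. WT replicates 1 to 3 were above every KO library, and WT replicate 4 was within the KO range. The log2 fold change was -0.41 (SE 0.15, 95% interval -0.72 to -0.11) and did not pass after adjustment over all genes (edgeR adjusted p = 0.147). DESeq2 called it (adjusted p = 0.0321), and the adjusted p over all alternatives ran from 0.0321 to 0.432.

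Dusp1 (ENSMUSG00000024190), the MAP kinase phosphatase gene, lies on the minus strand at chr17:26505590-26562128, a span that also holds Ergic1 on the other strand (1037 to 1455 counts in KO libraries, 422 to 713 counts in WT libraries). It had 440, 357, 414 and 320 CPM in KO replicates 1 to 4 and 552, 357, 428 and 423 CPM in WT replicates 1 to 4. The groups overlapped, and KO replicate 1, lowest of the KO libraries for 7 of the 10 genes, was highest of them for Dusp1. The log2 fold change was -0.20 (95% interval -0.53 to 0.12, edgeR adjusted p = 0.644).

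Zfp36 (ENSMUSG00000044786, chr7:28376784-28380253, minus strand) encodes tristetraprolin, which binds AU-rich elements and speeds the decay of cytokine and early-response RNAs. It had 265, 276, 343 and 359 CPM in KO replicates 1 to 4 and 464, 503, 316 and 333 CPM in WT replicates 1 to 4. WT replicates 1 and 2 were above all KO libraries, and WT replicates 3 and 4 lay among them. The log2 fold change of -0.38 (95% interval -0.74 to -0.019) did not pass after adjustment over all genes (edgeR adjusted p = 0.292).

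**Figure D3:**
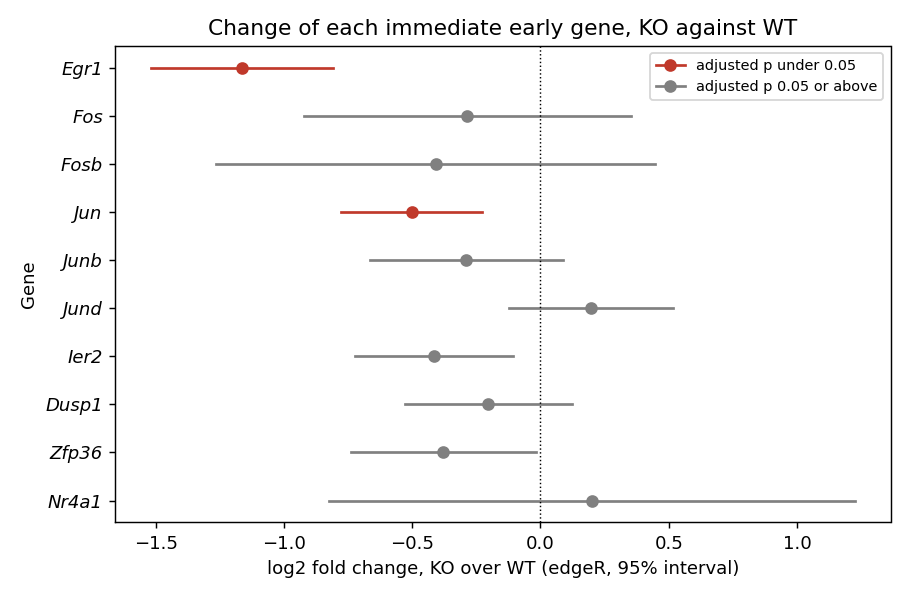
Log2 fold change of KO over WT for each gene with its 95% interval from edgeR. Egr1 at -1.16 and Jun at -0.50 passed after adjustment over all genes, and the intervals of Fosb and Nr4a1 are the widest.

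The genes differed in how far libraries of a group lay apart. The within-group SD on the log2 scale, pooled over KO and WT, was 0.778 for Nr4a1, 0.708 for Fosb and 0.493 for Fos. It was 0.171 for Jun and between 0.212 and 0.316 for the other 6. The median was 0.484 over all genes tested and 0.289 over the 5141 with a mean of at least 40 CPM. Some libraries stood at the same end of their group for many of the genes. KO replicate 1 was lowest of its group for 7 of the 10 genes, and KO replicate 3 was highest for 5 of them and lowest for 0. WT replicate 1 was highest of its group for 6 genes, WT replicate 2 for 3, and WT replicate 4 was lowest for 8. The ranks of the libraries over all genes are not given here, so these counts are not read as a trait of the 10 genes.

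The summed level of the 10 genes was 3059, 3192, 4111 and 3514 CPM in KO replicates 1 to 4 and 5359, 4941, 4313 and 3612 CPM in WT replicates 1 to 4. KO replicate 3 exceeded WT replicate 4, so the groups overlapped. The means were 3469 ± 468 CPM in KO and 4556 ± 763 CPM in WT (SD, n = 4 each), KO being at 76.1% of WT. No test was made of the sum. Alveolar type 2 markers summed to 3861, 11267, 17164 and 7070 CPM in KO replicates 1 to 4 and to 23588, 4057, 9978 and 17813 CPM in WT replicates 1 to 4. Among KO libraries the lowest and the highest sums of both kinds were in replicates 1 and 3. Among WT libraries replicate 1 had the highest sums of both kinds, while replicate 4 had the lowest immediate early sum and the second highest type 2 sum. The part of type 2 cells in the spread between libraries was not tested.

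**Figure D4:**
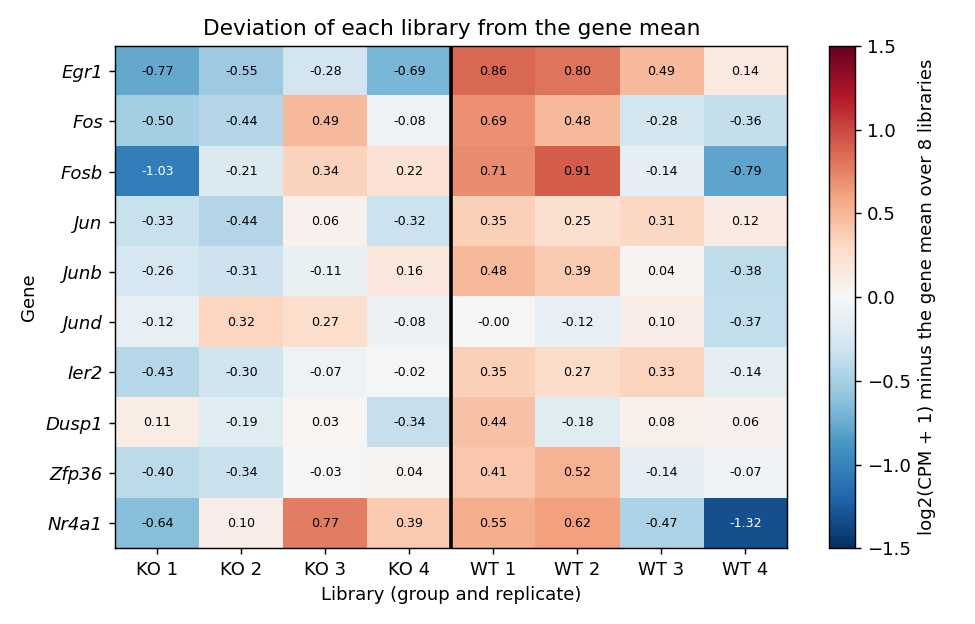
Deviation of each library from the mean of each gene over the 8 libraries, on the log2(CPM + 1) scale, with KO left of WT. Columns KO 1, KO 2 and WT 4 are below the mean for 9, 8 and 7 of the 10 genes and columns WT 1 and WT 2 above it for 9 and 8, while the Egr1 row is below 0 in all 4 KO libraries and above 0 in all 4 WT libraries.

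The gene pattern over libraries was also compared with that of all other genes. The measure was the root mean square difference between the centred log2(CPM + 1) of a gene and the mean of the 10 genes, over 8 libraries. Among the members, Junb (0.144) and Zfp36 (0.145) lay nearest to the mean pattern and Nr4a1 (0.512) and Egr1 (0.432) farthest from it. Of 10655 other genes with a mean of at least 5 CPM, the nearest were Mcrs1 (0.129), Arhgef26 (0.137), Pkp4 (0.141), Eps15 (0.148), Csk (0.150) and Dip2c (0.156). None of these 6 passed between KO and WT by edgeR, with adjusted p from 0.597 to 0.864 (0 at an unadjusted p under 0.05, and 0 by DESeq2 or limma voom). The mean pattern they were picked to match overlaps between KO and WT in these same libraries. Their not passing thus follows largely from the choice, and nothing is drawn from it.

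Levels can be compared between genes only per exonic length. In WT libraries the order in CPM per kilobase of exonic length was Jun (366 ± 25.4), Ier2 (345 ± 50.8), Junb (206 ± 52.6), Jund (181 ± 24.8), Fos (172 ± 61.9), Egr1 (138 ± 29.9), Dusp1 (133 ± 24.6), Zfp36 (116 ± 26.8), Nr4a1 (34.5 ± 18.8) and Fosb (16.3 ± 8.03; SD, n = 4 each). Neighbours in this order overlapped in range, except Ier2 with Junb and Zfp36 with Nr4a1. Jun exceeded 99.4% of all tested genes on this scale and Zfp36 97.2%, while Fosb exceeded 76%. In KO libraries the corresponding level of Egr1 was 61.4 ± 9.43 CPM per kilobase, below that of Zfp36 at 89.6 ± 13.6. In WT libraries the Egr1 mean was above that of Zfp36, with overlapping ranges (100 to 165 and 91.2 to 145). Exonic length here merges the exons of all transcripts, 3470 bases for Zfp36 and 3311 for Dusp1. Their longest protein-coding transcripts have 2790 and 1990 bases, and the order of the genes depends on which length is used.

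Other immediate early genes and AP-1 relatives did not move as a block. Of 52 listed, 47 were tested, of which 2 rose and 3 fell in KO, with a median log2 fold change of -0.10, or -0.24 under the length-GC correction. The called share of all genes was 3.63%. Maff, a small Maf protein gene, had 68.2, 51.0, 78.4 and 62.8 CPM in KO replicates 1 to 4 and 23.3, 30.5, 21.2 and 24.8 CPM in WT replicates 1 to 4. It rose by 1.38 on the log2 scale (SE 0.25, edgeR adjusted p = 0.0043), a call that ended under the length-GC correction (1.19, edgeR adjusted p = 0.0517). Ccn2, a secreted matrix-associated protein gene induced by YAP and TGF-beta, had 344, 234, 278 and 91.7 CPM in KO replicates 1 to 4 and 59.1, 76.0, 88.4 and 74.8 CPM in WT replicates 1 to 4. KO replicate 4 was just above the highest WT library (log2 fold change 1.67, SE 0.33, edgeR adjusted p = 0.018). The Ccn2 call ended without KO replicate 3 (edgeR adjusted p = 0.0513) or without WT replicates 1, 2, 3 or 4 (0.0616, 0.0708, 0.0518 and 0.0662), and under the length-GC correction (0.119).

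Plk2, a serum-inducible kinase gene, had 335, 458, 525 and 555 CPM in KO replicates 1 to 4 and 879, 857, 739 and 721 CPM in WT replicates 1 to 4. It fell by 0.77 on the log2 scale (SE 0.15, edgeR adjusted p = 0.00873) and was called in 22 of 23 alternatives. Zfp36l1, a paralogue of Zfp36 with the same kind of RNA-binding domain, averaged 91.6 ± 15.5 CPM in KO and 155 ± 18.0 CPM in WT (SD, n = 4 each; log2 fold change -0.75, SE 0.17, edgeR adjusted p = 0.0217). That call ended without KO replicate 1 (0.0501), 3 (0.0754) or 4 (0.056) or WT replicate 3 (0.0508) or 4 (0.0803), all edgeR adjusted p. Btg2, an antiproliferative early gene picked out after its value was seen, averaged 176 ± 39.4 CPM in KO and 273 ± 30.0 CPM in WT (log2 fold change -0.64, SE 0.17, edgeR adjusted p = 0.049, n = 4 each). The Btg2 call was just within the threshold and was held in 12 of 23 alternatives. It was held in 1 of 8 fits that left out a library, that without KO replicate 4, and the edgeR adjusted p was 0.0624 to 0.157 without any 1 of the other 7. It also ended under the length-GC correction (edgeR adjusted p = 0.0512). The close relatives Egr2 (2.25 ± 2.03 CPM in KO, 3.77 ± 5.67 CPM in WT), Egr3 (3.79 ± 3.13 CPM in KO, 3.70 ± 3.35 CPM in WT) and Fosl1 (7.61 ± 3.20 CPM in KO, 6.50 ± 4.48 CPM in WT) were low in both groups (SD, n = 4 each). Their 95% intervals, such as -3.42 to 3.49 for Egr3, include a log2 fold change of the size of that of Egr1. Batf, Batf3, Egr4, Nr4a3 and Npas4 did not pass the filter on low counts and reached at most 3.32 CPM in any library. Of these Nr4a3, a paralogue of Nr4a1, was picked out after its counts were seen. It had 1, 15, 42 and 44 counts in KO replicates 1 to 4 and 0, 0, 0 and 1 in WT replicates 1 to 4. The main fit did not test it. Without the filter on low counts all 52 listed genes were tested by edgeR, and Nr4a3 was not among the 6 called.

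Of 38 kinases, transcription factors and feedback regulators that act on these genes, 0 were called by edgeR, DESeq2 or limma voom. Over all genes edgeR called 3.63%, so few calls would be looked for among 38. An unadjusted edgeR p under 0.05 was found for 5 of them. The share of all genes under that limit is not given here, so nothing is drawn from this count. Their median log2 fold change was 0.01, or -0.092 under the length-GC correction. The smallest p belonged to Rps6ka3, the gene of an ERK-activated kinase, which averaged 148 ± 10.2 CPM in KO libraries and 102 ± 17.9 CPM in WT libraries (SD, n = 4 each; edgeR adjusted p = 0.103). Nab1, a corepressor gene of EGR proteins, had 119, 88.7, 108 and 84.8 CPM in KO replicates 1 to 4 and 56.6, 68.2, 79.1 and 61.0 CPM in WT replicates 1 to 4 (log2 fold change 0.60, SE 0.20, edgeR adjusted p = 0.116). All KO libraries lay above all WT libraries for 3 of the 38 genes (Rps6ka3, Map2k1 and Nab1) and below them for 1 (Spry2). Over all genes tested, 6.94% were separated upward and 4.67% downward. Srf, the serum response factor gene, averaged 103 ± 14.8 CPM in KO and 63.7 ± 21.9 CPM in WT (edgeR adjusted p = 0.134), and passed without WT replicate 2 (log2 fold change 0.94, edgeR adjusted p = 0.0332). Spry2, a feedback inhibitor of receptor kinase signalling, averaged 38.0 ± 4.02 CPM in KO and 56.7 ± 9.90 CPM in WT (edgeR adjusted p = 0.225, n = 4 each).

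Heat shock genes are, like immediate early genes, induced when tissue is dissociated. Of 14 listed and tested, 2 rose in KO and 0 fell, set against 2.25% of all genes called higher. Of the 14 estimates 10 were above 0. The 4 below 0 were those of Dnajb1 (-0.34), Dnajb4 (-0.29), Bag3 (-0.25) and Dnaja1 (-0.090). The median log2 fold change of the list was 0.41, against 0.01 over all genes tested. Under the length-GC correction it was 0.24, against -0.10 over all genes. Hsp90aa1, the inducible cytosolic Hsp90, averaged 233 ± 26.8 CPM in KO and 123 ± 10.9 CPM in WT (SD, n = 4 each; log2 fold change 0.92, SE 0.15, edgeR adjusted p = 0.00239). Hsp90ab1, the constitutive form, averaged 1986 ± 87.7 CPM in KO and 1434 ± 75.9 CPM in WT (log2 fold change 0.47, SE 0.11, edgeR adjusted p = 0.0189, n = 4 each). Both calls ended under the length-GC correction (0.78, edgeR adjusted p = 0.05, and 0.25, edgeR adjusted p = 0.69), and that of Hsp90ab1 also without KO replicates 3 or 4 or WT replicates 3 or 4 (edgeR adjusted p up to 0.0692). Hspb1 (40.1 ± 13.9 CPM in KO, 17.1 ± 6.09 CPM in WT, edgeR adjusted p = 0.0779) and Hspd1 (123 ± 21.1 CPM in KO, 77.1 ± 19.6 CPM in WT, edgeR adjusted p = 0.0962) did not pass in the main fit. Hspb1 was called in 3 of 23 alternatives and Hspd1 in 1. All KO libraries lay above all WT libraries for 4 of the 14 genes (Hsp90aa1, Hsp90ab1, Hspb1 and Hspd1), against 6.94% of all genes tested. The strongly stress-inducible Hspa1a had 23.7, 1.17, 3.24 and 3.26 CPM in KO replicates 1 to 4 and 4.52, 4.23, 14.5 and 1.56 CPM in WT replicates 1 to 4, and its near-identical copy Hspa1b makes both uncertain.

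**Figure D5:**
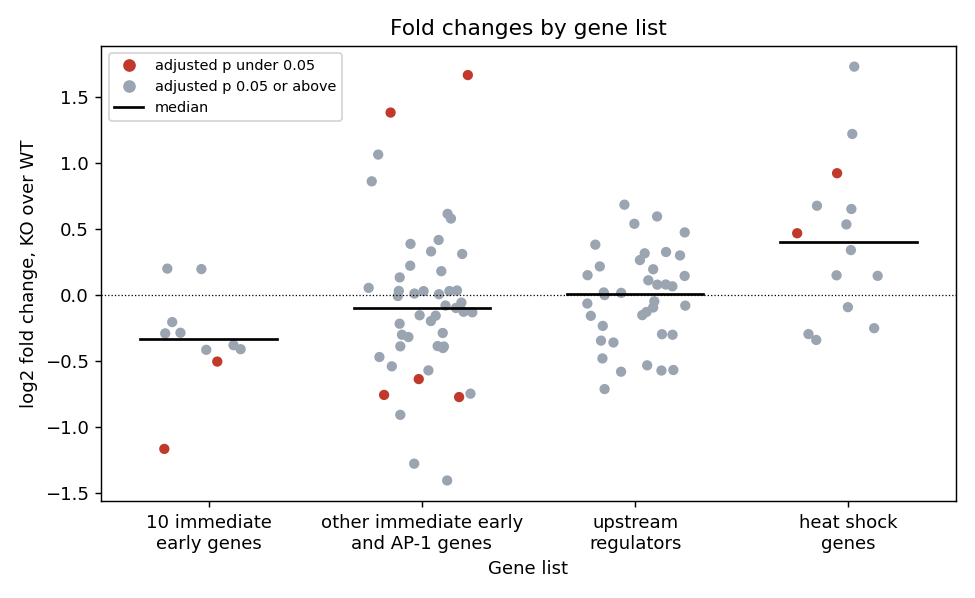
Log2 fold change of KO over WT for every tested gene of 4 lists, with horizontal lines for the medians. The medians are -0.33 for the 10 immediate early genes, -0.10 for other immediate early and AP-1 genes, 0.01 for upstream regulators and 0.41 for heat shock genes.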

How the data were processed

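RNA-seq of 8 libraries of sorted mouse lung endothelial cells was used, grouped as KO and WT with replicate numbers from the sample titles. The authors deposited raw counts of reads for each Ensembl gene. The tools named, per the submitters' processing notes, are bcl2fastq, TopHat, HTSeq and edgeR, with build mm10. Their versions, the annotation release and the strand setting were not given in the sources used here. Symbols came from GENCODE for 42546 of 43430 gene IDs, and IDs without one took at most 0.0795% of a library.

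Counts were filtered with filterByExpr (minimum count 10, minimum total 15) and TMM-normalised, and KO was compared with WT over 12689 genes in edgeR 4.0.16 under R 4.3.3 with its quasi-likelihood F test (robust, legacy dispersion option), with Benjamini-Hochberg adjustment at 0.05. SE come from the F statistic, and intervals are at 95%. The common biological coefficient of variation was 63.5%, and the procedure was tested on simulated counts. Replicates differed beyond counting error (chi-square per degree of freedom 32.4 to 74.6). Reads carry no molecular identifiers.

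Members and lists were chosen with earlier results of these data known. Named genes were, by rule, the members, Uqcrq, the 4 genes with the smallest p in each of 3 other lists and the 6 genes nearest in pattern; others are marked. Alternatives were other size factors and filters, DESeq2 1.42.0, limma voom (limma 3.58.1), the newer dispersion option, a replicate block, a covariate for Y-linked expression, thinning to one depth, removal of length and GC trends and leaving out each library. The alveolar type 2 level as a covariate and leaving out KO replicate 1 with WT replicate 3 were chosen after seeing the data.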

Additional observations from a re-analysis of the deposited data

Results flagged for a closer look

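Of 60 groups of 4 libraries checked (each named gene and the summed level, in KO and in WT), 1 held a value that stood apart from the other libraries of its group. Pkp4, which encodes a junction-associated plakophilin and was named only for its likeness to the pattern of the immediate early genes, had 76.5 CPM in KO replicate 1, and the other KO libraries lay between 95.9 and 96.7 CPM. In WT it had 79.5 to 139 CPM. Its gap to the next library was 0.963 of the range of the KO group. The limit used (the 95% critical value of Dixon) is one that chance passes in about 1 group of 20, or about 3 of 60. None of the 10 immediate early genes had a library that stood apart in this way, in either group.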

How the results depend on the processing

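The call of Egr1 held in 23 of 23 alternatives, and that of Jun in 12. Members called numbered 1 with the replicate block, with the length and GC trend removed, with both together and without KO replicate 1 and WT replicate 3 together, and 1 to 2 when 1 library was left out. Where 1 was called it was Egr1, and without KO replicate 3 it was Egr1 and Jun. With DESeq2 members called numbered 3, which were Egr1, Jun and Ier2. Other immediate early and AP-1 genes numbered 3 with the block, 2 with the trend removed, 0 with both, 2 without KO replicate 1 and WT replicate 3 together, and 2 to 4 with 1 library left out. They numbered 7 with DESeq2, 6 without the filter on low counts and 6 with the type 2 level as a covariate. Heat shock genes numbered 1 with the block, 0 with the trend removed, 0 with both and 1 to 2 with 1 library left out. They numbered 3 without the filter on low counts, with DESeq2, with the newer dispersion option and with thinning. Upstream regulators numbered 0 to 1 with 1 library left out. Over all genes 788 were called by DESeq2, 747 with the newer dispersion option, 150 with the trend removed, 112 with the trend removed and the block, and 270 to 446 with 1 library left out. The cause was not tested. Jund turned to -0.23 with the trend removed and -0.17 with the block added, and Nr4a1 to -0.0046 with the trend removed, -0.029 without KO replicate 3 and -0.066 without WT replicate 4, all uncalled (Nr4a1 ran from -0.066 to 0.47 with 1 library left out). The log2 ratio of the summed members was -0.39, -0.30 as a mean of logs, -0.36 without Jun and -0.49 to -0.31 with 1 library left out. None of these values leaves out Egr1, the member with the lowest estimate.

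Same-numbered KO and WT libraries did not deviate together (correlations of -0.122 to 0.00627 over genes), so the replicate numbers were not taken as pairs. The replicate block gave 338 called genes. The members had at least 419 counts each in every library.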
